A study of Mus musculus with 2 samples.

Results

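Interferon-stimulated antiviral genes are the genes a cell switches on after interferon has bound its receptor, and 33 of them, listed by symbol, are described here in mouse lung. Of the 33 symbols, 32 had a row in the deposited matrices among 31053 genes in all. Mx2 was the symbol with no row, and it has no value here. The study is a droplet single-cell RNA comparison of 2 lung cell suspensions of strain C57BL/6, a wild-type (WT) library and a p47phox-KI (KI) library, each 1 library, and both labelled with acute lung injury. p47phox is a cytosolic subunit of the phagocyte NADPH oxidase and is encoded by Ncf1. Perfused lungs were digested with collagenase, erythrocytes were lysed, and cells were stained for viability and for CD45.2 and sorted. The gate of that sort, the agent of injury, the site and design of the knock-in, and the number, age and sex of the animals are not given in the sources used here. No uninjured lung is among the samples, so no level below can be told apart as a response to injury.

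Type I interferons act through a receptor made of Ifnar1 and Ifnar2, whose kinases activate transcription factors such as Stat2. Stat2 and Irf9 are parts of a complex that binds the interferon-stimulated response element in the promoters of these genes. Their products sense foreign nucleic acid, block translation, degrade or trap viral components, and feed back on the pathway. Lung endothelium and epithelium express many of them, and several are also induced by interferon gamma or by Irf3 without interferon.

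Both libraries had similar depth, with 43376713 unique molecular identifiers (UMIs, each standing for 1 captured transcript) in WT and 43445797 in KI. After filters, 7735 WT cells with a median of 3307 UMIs and 6636 KI cells with a median of 3774.5 UMIs were kept. Cells were clustered without the members, and clusters were named by marker genes, so each class name stands for cells like that type by those markers. All 7 endothelial and all 8 fibroblast markers were detected in the cells of those names in both libraries. With 1 library per genotype there is no replicate spread and no test, so a difference between libraries cannot be told apart from a difference between animals or preparations. The intervals given are 95% intervals of counting error only. Ncf1 held 228 UMIs in WT and 213 in KI, which does not tell the libraries apart. The libraries shared 30 barcode sequences. Haemoglobin UMIs were seen in 1.62% of WT and 17.2% of KI barcodes.

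Of the 32 members, 23 had an entry in the RefSeq promoter table (build GRCm38.p6), which holds 250 bases before and 50 bases after each transcription start. The core letters of the interferon-stimulated response element, GAAANNGAAA on either strand with overlaps counted, were found in 13 of those 23 genes (56.5%). Of all 27025 genes in the table, 3.99% held these letters. The gamma-activated letters TTCNNNGAA were found in 5 of the 23 (21.7%), against 9.55% of all genes. Windows of 50 bases around the most downstream match in the promoter are shown for 8 members whose values the results turn on. Each is 5′ to 3′ on the strand of the gene, with every GAAANNGAAA match or its reverse complement within the window in capitals.
Isg15, chr4:156200855-156200904, minus strand: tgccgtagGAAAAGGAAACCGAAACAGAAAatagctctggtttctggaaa
Ifit1, chr19:34640784-34640833, plus strand: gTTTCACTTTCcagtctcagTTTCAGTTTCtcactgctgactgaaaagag
Ifit3, chr19:34583387-34583436, plus strand: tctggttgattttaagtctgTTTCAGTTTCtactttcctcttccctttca
Ifit3b, chr19:34607783-34607832, plus strand: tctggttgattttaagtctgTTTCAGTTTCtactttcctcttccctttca
Slfn5, chr11:82951927-82951976, plus strand: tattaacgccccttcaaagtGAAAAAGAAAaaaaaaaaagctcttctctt
Bst2, chr8:71537567-71537616, minus strand: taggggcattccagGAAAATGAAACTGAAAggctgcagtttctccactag
Rsad2, chr12:26456543-26456592, minus strand: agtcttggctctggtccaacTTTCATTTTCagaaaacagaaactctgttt
Stat2, chr10:128270256-128270305, plus strand: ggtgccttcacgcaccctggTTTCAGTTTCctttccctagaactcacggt

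Isg15 held 3 overlapping matches, beginning 78, 72 and 66 bases before the start. The Ifit3 and Ifit3b windows are identical, and their promoters share an unbroken run of 169 bases. The starts of 14 member promoters lay within 5 bases of the gene start in the GENCODE annotation. For Slfn5 and Stat2 that gene start is base 82951349 and base 128270559, so their windows belong to other starts. No match lay in the windows of Oasl2, Oasl1, Ifit2, Cmpk2, Irf7, Irf9, Xaf1, Ifi35, Ifi44 or Isg20. That says only that these letters are not in those 300-base windows. A match was present both in members with the higher KI values described below, such as Isg15 and Ifit1, and in Bst2 and Rsad2, whose endothelial levels were close between libraries.

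Levels are given as counts per 1e6 UMIs of the cells summed (CPM), which in a library of tags near the 3′ end counts molecules and needs no correction for transcript length. Among the 6 classes that held 100 cells or more of both WT and KI, the level summed over the 32 members was highest in endothelial cells, at 2075 CPM in WT and 2600 CPM in KI. Type 2 alveolar cells, which secrete surfactant, were lowest at 247 CPM in WT and 300 CPM in KI. Fibroblasts were at 1096 and 1275 CPM, type 1 alveolar cells, the thin gas-exchange epithelium, at 1090 and 1406 CPM, leukocytes at 1091 and 947 CPM, and smooth muscle cells or pericytes at 750 and 849 CPM, in WT and KI respectively. In both libraries endothelial cells thus held the most and type 2 alveolar cells the least member RNA per UMI of these 6. The few mesothelial cells, 11 in WT and 9 in KI, stood at 2370.1 and 3919.5 CPM and are not among them. No class lacked these genes, so none gives a level of RNA released into the suspension by itself. In type 2 alveolar cells such RNA can make up no more than the level given.

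**Figure D1:**
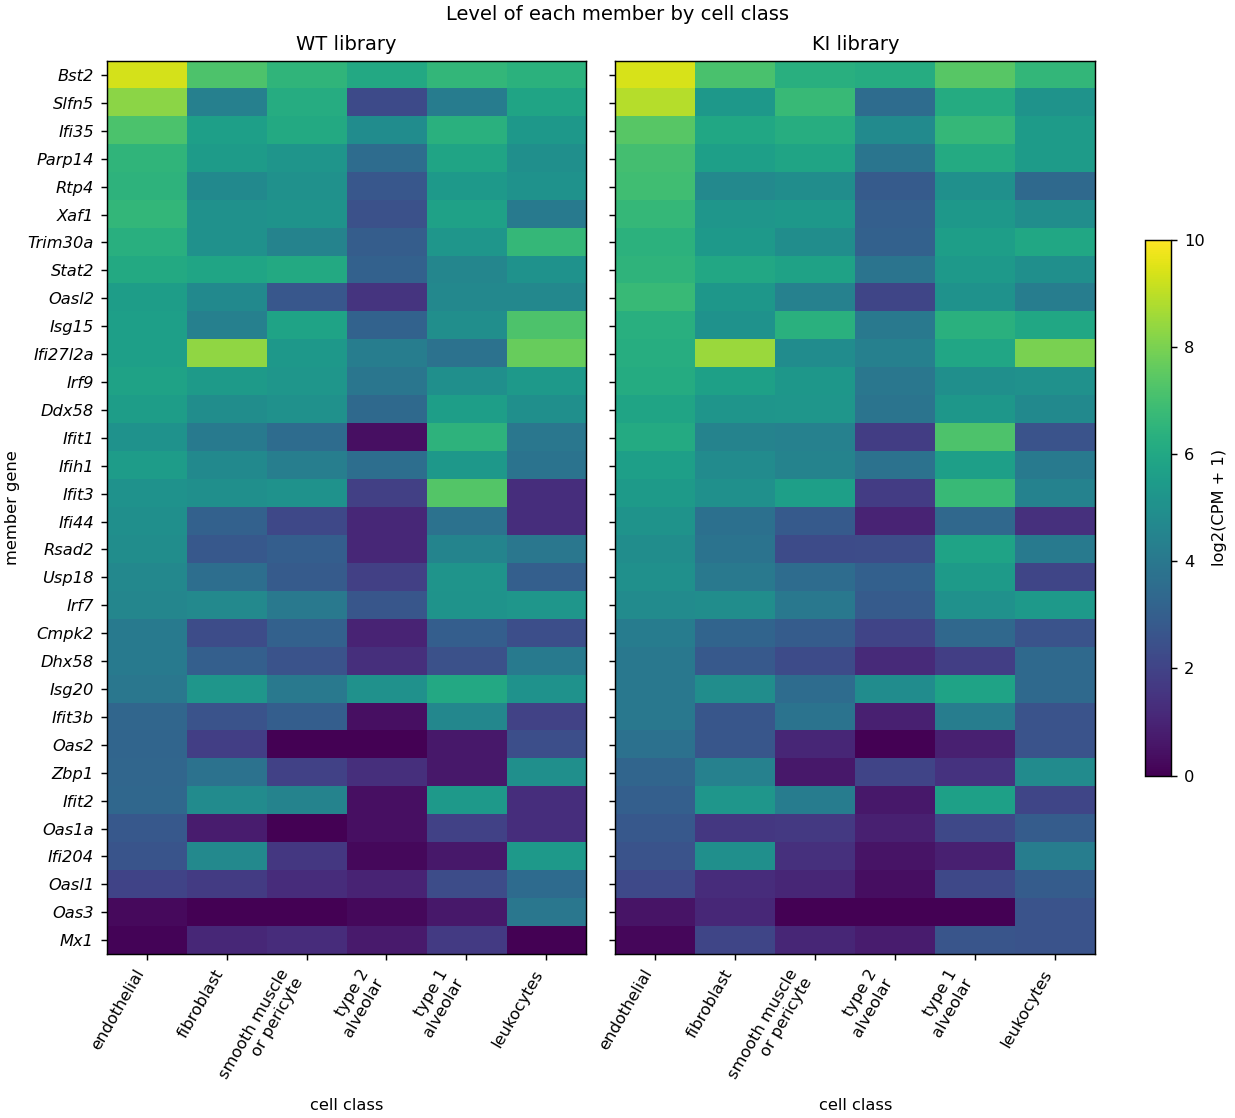
Heat maps of the level of the 32 members (rows, ordered by endothelial level) in 6 cell classes (columns) of the WT library (left) and the KI library (right), as log2(CPM + 1) of summed UMIs. Bst2 and Slfn5 are brightest in endothelial cells and Ifi27l2a in fibroblasts, while most members are dark in type 2 alveolar cells.

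Members did not share 1 pattern over cell types. Among these 6 classes, 12 members were highest in endothelial cells in both libraries, 7 in type 1 alveolar cells, 4 in leukocytes and 1 in fibroblasts. The intervals of the top class stood apart from the next in both libraries for 8 of the 12, 3 of the 7 and 0 of the 4, and for Ifi27l2a in fibroblasts. For the other 8 the highest class differed between the libraries. Bst2, which encodes tetherin, a membrane protein that holds budding virions on the cell, was the most abundant member in endothelial cells at 647 CPM in WT and 666 CPM in KI. Its next-highest class reached 145 CPM in WT, in fibroblasts, and 170 CPM in KI, in type 1 alveolar cells. Slfn5, a Schlafen-family gene, was likewise endothelial, at 305 CPM in WT against 72.2 CPM in smooth muscle cells or pericytes. Ifi27l2a, a small mitochondrial or membrane protein gene, was the member highest in fibroblasts, at 325 CPM in WT and 363 CPM in KI. Leukocytes followed for Ifi27l2a, at 206 and 254 CPM.

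Type 1 alveolar cells led for the Ifit family, whose proteins bind viral RNA and block its translation. Ifit3 stood at 159 CPM in WT and 106 CPM in KI type 1 alveolar cells, against 33.6 and 49.5 CPM in the next class, smooth muscle cells or pericytes. Isg20, an exonuclease that degrades RNA, was also highest there, at 64.6 and 55.2 CPM. In type 2 alveolar cells Isg20, at 32.4 CPM in WT and 28.2 CPM in KI, came after Bst2, at 65.0 and 71.96 CPM. The DNA sensor gene Ifi204 reached 42.0 CPM in WT leukocytes and 30.6 CPM in KI fibroblasts but 5.02 and 4.92 CPM in endothelial cells. Mx1, a dynamin-like GTPase gene of antiviral defence, was nearly absent, with 1 WT and 2 KI UMIs in all endothelial cells. Oas3 was as scarce, with 3 and 7 UMIs, and neither gene has an interpretable ratio there.

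In endothelial cells, 4306 in WT and 3494 in KI, the summed member level was higher in KI by 0.33 on the log2 scale (interval 0.31 to 0.35). A gene was counted as higher or lower where its log2 ratio of KI over WT passed 0.5 in size, among genes with at least 20 UMIs in the class. By that rule 7 of 30 members were higher, against 10.8% of all 12971 genes, and 0 were lower, against 6.62% of all genes. The median member ratio was 0.27, and that of all genes 0.05. The 7 members were Oasl2, Ifit1, Ifit3b, Isg15, Slfn5, Ifi27l2a and Oas2. Leukocyte markers summed to 85.6 CPM in WT and 91.0 CPM in KI endothelial cells, and the haemoglobin level was 6.34 and 265 CPM; the part of free RNA in these ratios was not tested.

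The oligoadenylate synthetases make a second messenger that activates RNase L, and Oasl1 and Oasl2 are their ubiquitin-like relatives. Oasl2 had the highest ratio of any measured member in endothelial cells, from 46.8 CPM in WT to 107 CPM in KI, a log2 ratio of 1.20 (1.07 to 1.32). Its neighbour Oasl1 was scarce at 2.99 and 3.64 CPM (0.28, interval -0.29 to 0.86). Oas2 stood at 8.49 and 12.3 CPM (0.54, 0.22 to 0.86), and Oas1a at 5.80 and 5.81 CPM (0.00, -0.43 to 0.43). Within this family the ratio therefore ranged from no difference in Oas1a to more than doubling in Oasl2. Of the 60-base words in the last 500 bases of Oas1a transcripts, 51.2% also occur in Oas1g, so the count of Oas1a depends on how such tags were assigned.

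The Ifit genes lie side by side on chromosome 19. Ifit1 was at 33.02 CPM in WT and 68.6 CPM in KI endothelial cells (1.06, 0.91 to 1.21). Ifit3b, at 8.85 and 14.9 CPM, had a ratio of 0.75 (0.45 to 1.06), and Ifit3, at 33.6 and 43.2 CPM, of 0.36 (0.20 to 0.53). Ifit2 went the other way, from 9.21 to 7.16 CPM (-0.36, -0.73 to -0.004), but 33 of its 154 WT UMIs came from 1 cell, and without the cell with the most member UMIs in each library its ratio was -0.02. Of the words at the ends of Ifit3 transcripts, 12.9% also occur in Ifit3b, whereas those of Ifit1, Ifit2 and Ifit3b occur in no other gene.

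Isg15, a ubiquitin-like protein that is attached to other proteins, was at 48.4 CPM in WT and 78.7 CPM in KI (0.70, 0.57 to 0.83). Usp18, the protease that removes Isg15 and dampens the receptor, was at 24.2 and 31.6 CPM (0.38, 0.19 to 0.58). Both were higher in KI by more than counting error, Isg15 past the 0.5 limit and Usp18 not. Among the transcription factors, Stat2 stood at 66.8 and 89.9 CPM (0.43, 0.31 to 0.54), Irf9 at 53.1 and 69.5 CPM (0.39, 0.26 to 0.52) and Irf7 at 22.9 and 27.5 CPM (0.27, 0.06 to 0.47). Irf9 overlaps Rnf31 on the same strand and Irf7 overlaps Phrf1 on the other, and how the counting treated such reads is not given in the sources used here. The same holds for Oasl1, Usp18, Rtp4, Slfn5, Ifi35 and Dhx58, which overlap a gene on the other strand.

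The cytosolic RNA sensors were closer between the libraries. Ddx58, which encodes RIG-I, was at 46.95 and 57.1 CPM (0.28, 0.14 to 0.42). Ifih1, which encodes MDA5, was at 45.7 and 48.6 CPM (0.09, -0.06 to 0.24), and Dhx58, which encodes LGP2, at 15.9 and 15.1 CPM (-0.07, -0.33 to 0.19). The intervals of Ifih1 and Dhx58 include no difference, and so do those of the nucleic acid sensors Zbp1 (8.79 and 8.62 CPM) and Ifi204.

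Among the other effectors, Slfn5 had the most UMIs behind its ratio after Bst2, 5096 in WT and 7314 in KI, or 305 and 467 CPM (0.62, 0.56 to 0.67). Ifi27l2a was at 49.2 and 73.5 CPM (0.58, 0.45 to 0.71). Below the 0.5 limit but above counting error lay Parp14, an ADP-ribosyltransferase gene (93.4 and 128 CPM, 0.46), Rtp4, a chaperone of membrane receptors (88.2 and 121 CPM, 0.45), Ifi35 (141 and 168 CPM, 0.26) and the ubiquitin ligase gene Trim30a (77.3 and 85.3 CPM, 0.14). The 2 libraries were close for Bst2 (0.04, 0.00 to 0.08), the apoptosis-linked Xaf1 (96.5 and 100.5 CPM, 0.06), Ifi44 (30.4 and 34.0 CPM, 0.16) and Isg20 (14.5 and 15.1 CPM, 0.06). The most abundant member was thus among those with the least difference. Rsad2, whose product viperin makes a chain-terminating nucleotide, and Cmpk2, its divergently transcribed neighbour on chromosome 12, were at 29.2 and 29.0 CPM (-0.01) and 16.6 and 17.3 CPM (0.06). A single WT cell held 144 of the 489 WT Rsad2 UMIs, and without the top cell of each library the Rsad2 ratio was 0.27 (0.06 to 0.48).

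**Figure D2:**
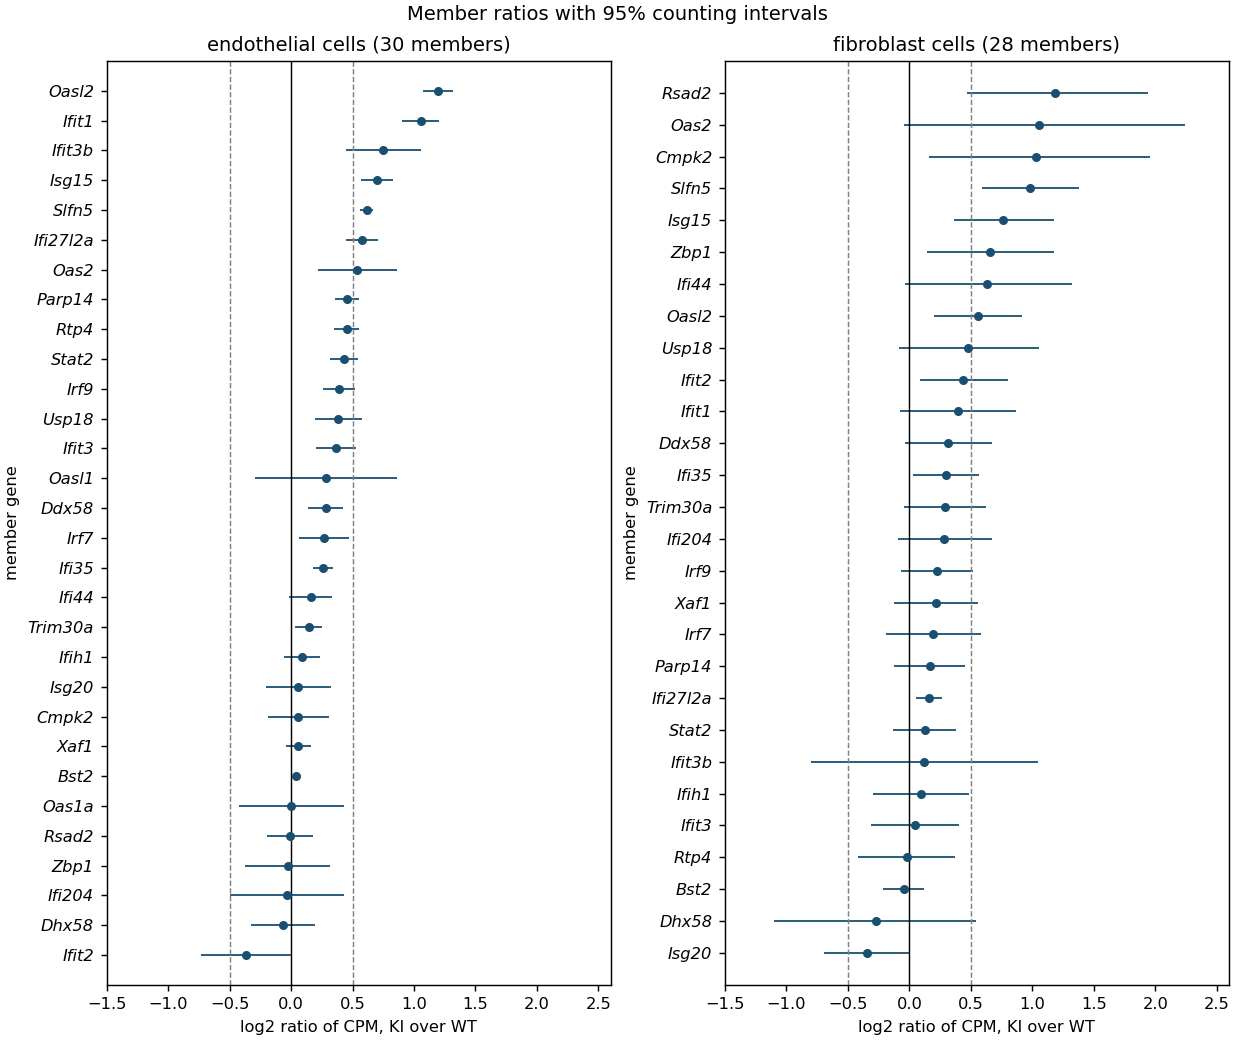
Log2 ratio of CPM, KI over WT, for each member with at least 20 UMIs in endothelial cells (left, 30 members) and fibroblasts (right, 28 members). Points are ratios, bars are 95% counting intervals, and dashed lines mark 0.5 in each direction; Oasl2 and Ifit1 stand highest in endothelial cells, and intervals are wider in fibroblasts.

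The endothelial ratio was not even over subtypes. Capillary aerocytes, the large gas-exchange capillary cells, had summed levels of 1955 CPM in WT and 2307 CPM in KI (0.24, 0.20 to 0.27). General capillary cells were at 2261 and 2904 CPM (0.36, 0.33 to 0.39), arterial cells at 1984 and 2696 CPM (0.44, 0.39 to 0.50) and venous cells at 1888 and 2534 CPM (0.42, 0.33 to 0.52). The aerocyte interval does not meet those of the other 3 subtypes, but this difference was not tested over animals. The median member ratio was 0.10 in aerocytes, 0.37 in general capillary, 0.51 in arterial and 0.55 in venous cells. The median of all genes was 0.04, 0.04, 0.05 and 0.03 in that order. Without the top cell of each library the summed aerocyte ratio was 0.28 (0.25 to 0.32) and the median 0.15. The aerocyte clusters were not alike. The deeper, with a WT median of 4169 UMIs, had a summed ratio of 0.21 (0.18 to 0.25). The shallower, with a WT median of 1727 UMIs, had 0.34 (0.26 to 0.42), which includes the general capillary interval. In aerocytes 2 of 28 members were higher (10.0% of all genes) and 3 lower (7.65% of all genes). In general capillary cells 12 of 30 were higher (13.4% of all genes) and 0 lower (7.36%), in arterial cells 16 of 29 (14.9%) and 0 lower (7.78%), and in venous cells 15 of 25 (16.3%) and 0 lower (11.1%). The aerocyte count of higher members is near its background, while the counts in the other 3 are above theirs.

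Oasl2 and Slfn5 were the members past 0.5 in all 4 endothelial subtypes. Oasl2 went from 44.4 to 78.5 CPM in aerocytes (0.82, 0.61 to 1.03), from 53.2 to 129 CPM in general capillary cells (1.28, 1.09 to 1.47), from 44.2 to 134 CPM in arterial cells (1.60, 1.29 to 1.92) and from 24.5 to 97.7 CPM in venous cells (2.00, 1.31 to 2.75). Slfn5 had ratios from 0.54 in aerocytes to 0.78 in arterial cells. Ifit1 was 0.43 (0.13 to 0.74) in aerocytes and 1.13 in general capillary, 1.73 in arterial and 1.58 in venous cells. Without the aerocyte with the most member UMIs in each library its aerocyte ratio was 0.69 (0.37 to 1.02), past the limit there too. Isg15 also differed by subtype: it was 42.6 and 46.8 CPM in aerocytes (0.13, -0.10 to 0.37) but 56.2 and 112 CPM in general capillary cells (1.00, 0.81 to 1.19). Stat2 and Parp14 had ratios of 0.03 and 0.13 in aerocytes and of 0.66 and 0.71 in general capillary cells. Ifi27l2a was concentrated in venous cells, at 183 CPM in WT and 312 CPM in KI (0.77, 0.49 to 1.06), against 30.04 and 41.98 CPM in aerocytes. One KI venous cell held 71 of those UMIs, and without the top cells the venous levels were 174 and 248 CPM (0.51, 0.20 to 0.81). Bst2 was higher in KI aerocytes (0.28, 0.22 to 0.35) and lower in KI general capillary cells (-0.13, -0.19 to -0.06), both within the 0.5 limit.

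**Figure D3:**
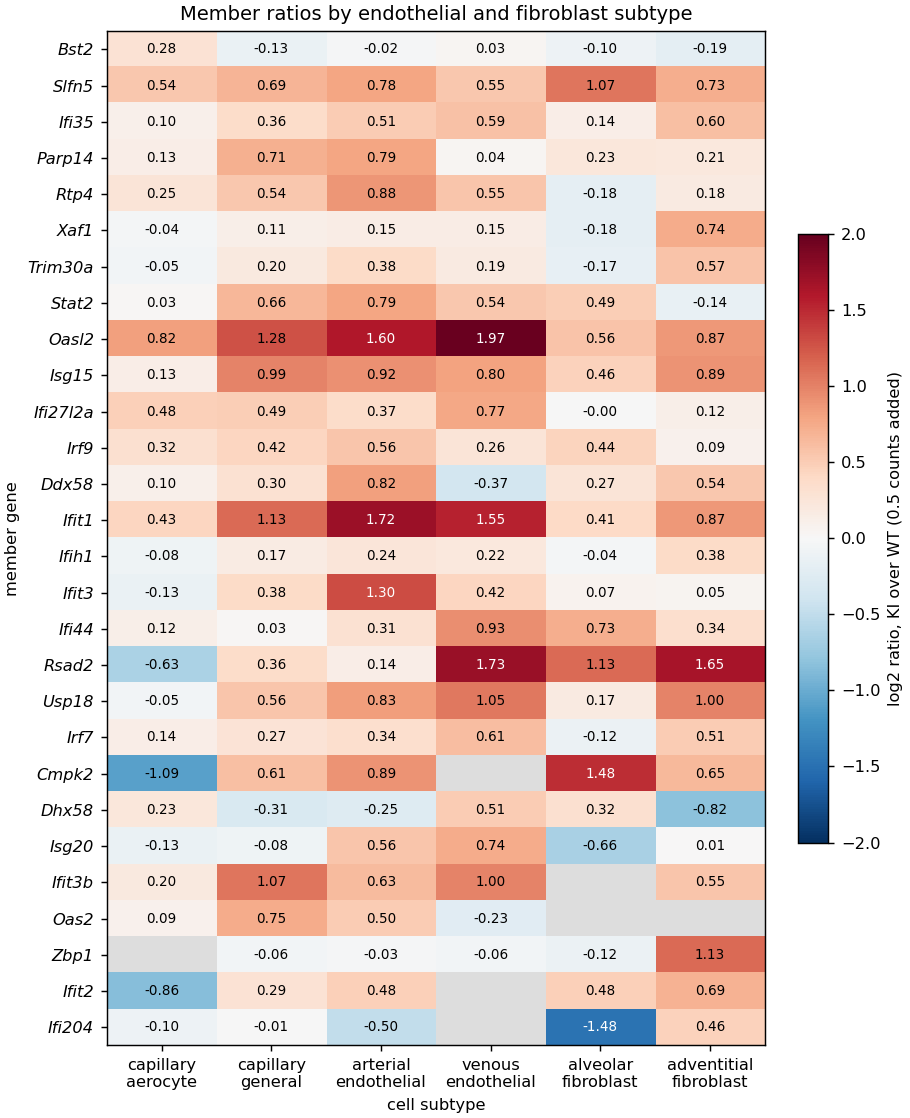
Log2 ratio of KI over WT, with 0.5 counts added, for members measured in at least 4 of the 6 endothelial and fibroblast subtypes (columns); grey cells have under 20 UMIs. Oasl2 and Slfn5 are above 0.5 in all 4 endothelial columns, and the blue values of Cmpk2, Ifit2 and Rsad2 in aerocytes are those to which 1 WT cell contributed much.

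The 3 members lower in KI aerocytes were Cmpk2 (18.9 and 8.86 CPM, -1.09), Ifit2 (15.8 and 8.71 CPM, -0.86) and Rsad2 (29.7 and 19.1 CPM, -0.64). A single WT aerocyte of 10779 UMIs held 454 member UMIs from 27 members, among them 144 of Rsad2, 33 of Ifit2 and 26 of Cmpk2. Leaving out the aerocyte with the most member UMIs in each library, a step added after this was seen, gave Rsad2 8.66 and 17.0 CPM, a ratio of 0.97 (0.50 to 1.45) in the other direction. Ifit2 then had -0.33 (-0.86 to 0.18) and Cmpk2 -0.77 (-1.26 to -0.29). Without those cells 4 aerocyte members were higher and 1 lower. Cmpk2 is therefore the member whose lower level in KI aerocytes did not rest on that cell, and in general capillary cells its ratio was 0.61 (0.24 to 0.98).

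In fibroblasts, 1347 in WT and 1113 in KI, the summed ratio was 0.22 (0.16 to 0.27). By the same rule 8 of 28 members were higher, against 17.7% of all 11878 genes, and 0 lower, against 7.37%. The median member ratio was 0.29 and that of all genes 0.09. Haemoglobin was at 4.02 CPM in WT and 1516 CPM in KI fibroblasts, and its part in the ratios was not tested.

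The 8 members were Rsad2, Oas2, Cmpk2, Slfn5, Isg15, Zbp1, Ifi44 and Oasl2, of which 4 had at least 100 UMIs. Slfn5 was at 19.6 CPM in WT and 38.8 CPM in KI (0.98, 0.59 to 1.38), but 1 KI cell held 26 of its 165 KI UMIs. Isg15 was at 19.6 and 33.4 CPM (0.77, 0.36 to 1.17), and 1 KI cell held 30 of its 142 KI UMIs. Zbp1 was at 12.5 and 19.8 CPM (0.66, 0.14 to 1.18) and Oasl2 at 26.0 and 38.3 CPM (0.56, 0.20 to 0.92). Ifi27l2a, the leading fibroblast member, was at 325 and 363 CPM (0.16, 0.05 to 0.27), so its level was close between libraries where it was highest. Of the other members with at least 100 UMIs, ratios ran from -0.34 for Isg20 (36.7 and 28.9 CPM) to 0.48 for Usp18 (11.1 and 15.5 CPM). Between them lay Ifit2 (27.2 and 36.9 CPM, 0.44), Ifit1 (0.40), Ddx58 (0.32), Ifi35 (0.30), Trim30a (0.29), Ifi204 (0.29), Irf9 (0.22), Xaf1 (0.21), Irf7 (0.19), Parp14 (0.17), Stat2 (0.13), Ifih1 (0.09), Ifit3 (0.05), Rtp4 (-0.02) and Bst2 (-0.05). Of these, only the intervals of Ifit2 and Ifi35 lay wholly above 0.

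Adventitial fibroblasts, which sheathe vessels and airways, had a higher summed level and pooled ratio than alveolar fibroblasts. Their summed levels were 1213 CPM in WT and 1457 CPM in KI (0.26, 0.19 to 0.34), against 1023 and 1116 CPM (0.13, 0.04 to 0.21) in alveolar fibroblasts. Ifi27l2a held much of these sums. Without the top cell of each library it was at 426 and 457 CPM in adventitial and 246 and 253 CPM in alveolar fibroblasts. Other members went both ways in WT at that setting. Bst2 was higher in adventitial than in alveolar cells (200 against 102 CPM). Stat2 (48.0 against 66.7 CPM), Irf9 (34.8 against 49.6 CPM) and Isg20 (29.3 against 42.8 CPM) were lower there. In adventitial cells 15 of 27 members were higher (20% of all genes) and 1 lower (9.60%); in alveolar cells 5 of 26 were higher (17.5%) and 2 lower (9.44%). Without the top cell of each library 2 of 25 were higher and 2 lower in alveolar cells. The lower member in adventitial cells was Dhx58. Isg15 was at 25.3 and 47.3 CPM in adventitial cells (0.90, 0.39 to 1.43) and 13.5 and 18.5 CPM in alveolar cells (0.46, -0.30 to 1.22). Ifi204 was an adventitial gene, at 38.5 and 53.1 CPM there against 16.2 and 5.62 CPM in alveolar fibroblasts. Isg20 was lower in KI alveolar fibroblasts, from 42.7 to 27.0 CPM (-0.66, -1.20 to -0.15), and level in adventitial ones (0.02). The alveolar fibroblast cluster led by Thbs1 and Slc39a14 had the highest alveolar level, 1269 and 1318 CPM, with a ratio of 0.05 (-0.10 to 0.21). It held 286 WT and 118 KI cells. The other alveolar clusters had ratios of 0.29 (0.15 to 0.42) and 0.22 (0.02 to 0.42). The adventitial clusters had 0.20 (0.10 to 0.31) and 0.16 (0.04 to 0.29), so the pooled order of ratios was not seen cluster by cluster. The latter cluster, at 1602 and 1795 CPM, held 96 WT and 176 KI cells. The part of this mixture in the pooled ratios was not tested.

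**Figure D4:**
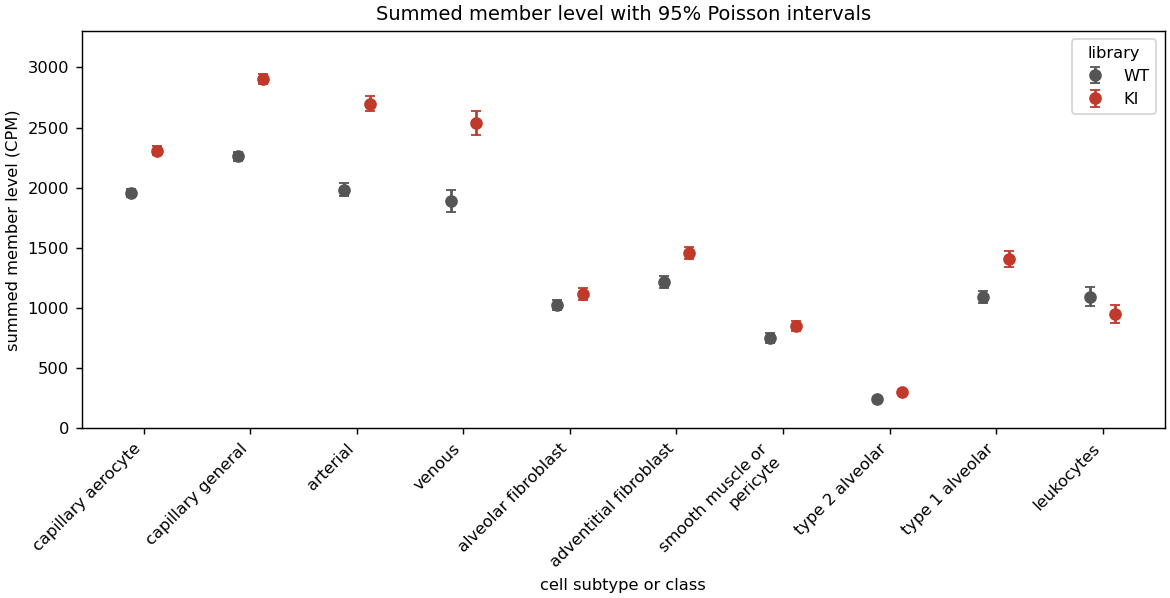
Summed level of the 32 members in CPM, by endothelial and fibroblast subtype and by other class, in the WT library (grey) and the KI library (red), with 95% Poisson intervals. KI lies above WT everywhere except in the pooled leukocytes, and the gap is widest in general capillary, arterial and venous endothelial cells.

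Type 1 alveolar cells, 432 in WT and 253 in KI, had a summed ratio of 0.37 (0.27 to 0.46), and the cell with the most member UMIs held 13.4% of all KI member UMIs in the class. Here 7 of 24 members were higher, against 20.7% of all genes, and 1 lower, against 10.5%. Without the top cell of each library 7 of 23 were higher and 4 lower, Ifit3b, Rtp4 and Xaf1 joining Ifit3. Slfn5 was at 17.1 CPM in WT and 69.9 CPM in KI (2.03, 1.41 to 2.68), Isg15 at 29.7 and 81.1 CPM (1.45, 0.95 to 1.97) and Rsad2 at 21.7 and 54.4 CPM (1.32, 0.72 to 1.94). The Rsad2 and Isg15 values rest on few cells. For Rsad2, 1 WT cell held 29 of 38 UMIs and 1 KI cell 32 of 63, and without both the ratio was 2.39 (1.28 to 3.64) from 9 and 31 UMIs. For Isg15, 1 KI cell held 36 of 94 UMIs, and without the top cells the ratio was 0.94 (0.35 to 1.53). Slfn5 UMIs were spread over 23 KI cells. Bst2 (98.3 and 170 CPM, 0.79), Ifit1 (87.5 and 148 CPM, 0.76), Stat2 and Ifi27l2a were also higher, but 1 KI cell held 75 of the 172 KI Ifit1 UMIs and 1 held 27 of the 69 KI Ifi27l2a UMIs. Ifit3 was the lower member, at 159 and 106 CPM (-0.59, -0.91 to -0.28), and it was so too without the top cell of each library (-0.76, -1.10 to -0.42). This class mixes a deeper and a shallower cluster, and the shallower made up a larger part of the class in KI. In the shallower cluster Slfn5 was at 75.7 and 165 CPM (1.13, 0.32 to 2.02), from 16 and 61 UMIs. Isg15 had 0.37 (-0.91 to 1.78) there, and Ifit1 2.90 (0.90 to 6.02) from 2 and 26 UMIs. Slfn5 and Isg15 thus lay below their class ratios and Ifit1 above. The part of this mixture in the class ratios was not tested. Haemoglobin stood at 1744 CPM in WT and 151 CPM in KI type 1 alveolar cells, whereas in the other 4 classes that are not leukocytes it was higher in KI, and its part was not tested.

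In type 2 alveolar cells, 454 in WT and 571 in KI, the summed ratio was 0.28 (0.18 to 0.38), and 10 of 22 members were higher, against 15.5% of all genes, with 0 lower, against 4.18%. The class joins a deep cluster of 450 WT and 476 KI cells with a shallow cluster of 4 WT and 95 KI cells, in which the member level was 1549 CPM in KI. Without the shallow cluster the summed ratio was 0.15 and 7 of 21 members were higher. In the deep cluster Isg15 was at 7.90 CPM in WT and 15.4 CPM in KI (0.96, 0.46 to 1.49), Usp18 at 2.69 and 6.55 CPM (1.28, 0.43 to 2.21) and Slfn5 at 3.70 and 5.38 CPM (0.54, -0.26 to 1.37). These members were chosen after their values were seen. Of the 110 KI Isg15 UMIs of the whole class, 31 came from 1 cell.

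Smooth muscle cells or pericytes had a summed ratio of 0.18 (0.07 to 0.29), with 8 of 22 members higher, against 14.2% of all genes, and 1 lower, against 8.27%. The higher members were Isg15, Ifit1, Ifit3, Ifit3b, Oasl2, Usp18, Slfn5 and Parp14, and the lower was Isg20, with 22 and 19 UMIs. Without the top cell of each library 3 of 21 were higher. A KI pericyte with 112 member UMIs held 30 of the 90 KI Ifit3 UMIs. The cluster of pericyte genes had 781 and 959 CPM (0.30, 0.16 to 0.43), and the Acta2 cluster 696 and 650 CPM (-0.10, -0.30 to 0.11).

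Pooled leukocytes went the other way in sum, at -0.20 (-0.36 to -0.05). In them 2 of 18 members were higher, against 24.4% of all genes, and 6 lower, against 14.6%. Xaf1 and Parp14 were the higher members, and Isg15, Isg20, Ifi204, Rtp4, Trim30a and Slfn5 the lower. Isg15 was at 148 CPM in WT leukocytes and 61.1 CPM in KI leukocytes (-1.27, -1.85 to -0.72). The mixture differed: 96 of the WT cells and 11 of the KI cells were neutrophils, and neutrophils held 77 of the 102 WT Isg15 UMIs. Within neutrophils Isg15 was higher in KI, at 417 and 869 CPM (1.06, 0.29 to 1.77), and in T or natural killer cells it was lower, from 20 UMIs to 3. The KI neutrophil value rests on 21 UMIs in 36.4% of the 11 cells. The direction of Isg15 in all leukocytes was therefore not that seen in these few neutrophils. The summed ratio also differed by leukocyte type. It was above 0 in neutrophils (0.48, 0.04 to 0.90) and B cells (1.05, 0.62 to 1.48). It was below 0 in T or natural killer cells (-0.36, -0.69 to -0.03) and -0.16 (-0.43 to 0.12) in macrophages or monocytes. The part of the cell mixture in the pooled ratio was not tested. UMIs of Y-linked genes were seen in 2 of 235 WT and 71 of 125 KI leukocytes, against 1 of 7500 and 16 of 6511 other cells, so KI leukocytes and the other KI cells differ in this and the origin of these leukocytes was not tested.

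Per cell, the endothelial difference was spread over many cells. Cells were thinned to 2000 UMIs each, leaving out 874 WT and 623 KI endothelial cells of lower depth. Of the remaining 3432 WT cells, 53.8% had UMIs from at least 3 different members, and of 2871 KI cells 66.9% did. At least 5 different members were seen in 15.8% of WT cells (14.6 to 17.0) and 27.2% of KI cells (25.6 to 28.9). At least 1 member UMI was present in 95.8% and 97.6%, and in 96.1% and 97.9% without thinning. In fibroblasts at least 5 members were seen in 3.82% of 838 WT cells and 6.31% of 792 KI cells. In type 2 alveolar cells no WT cell of 445 and 1 KI cell of 475 had 5, and the exact interval of the WT share runs to 0.826%.

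**Figure D5:**
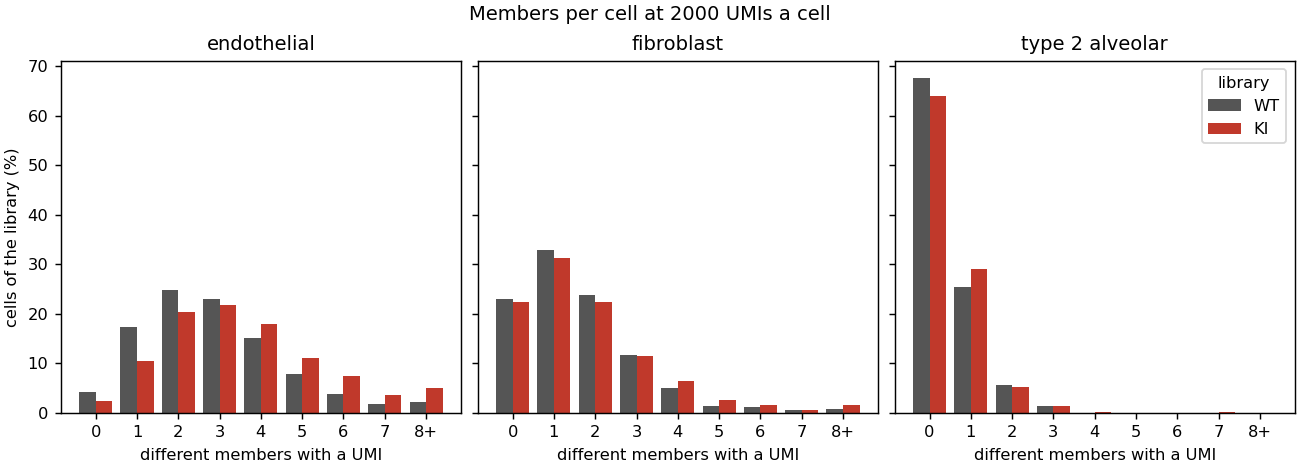
Share of cells (y axis, percent) by the number of different members with a UMI (x axis), after thinning every cell to 2000 UMIs, in the WT library (grey) and the KI library (red). In endothelial cells the KI bars shift to higher numbers, and in type 2 alveolar cells most cells of both libraries have 0.

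Interferons themselves were almost undetected. Over all barcodes Ifnb1 held 0 UMIs in WT and 2 in KI, Ifng 20 and 10, Ifnab 8 and 6, and Ifnz 6 and 2, and the other listed ligands 0 or 1. Ligand counts were therefore too low for a comparison by cell class.

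Other genes of the pathway are read against the same shares of all genes, in endothelial cells 10.8% higher and 6.62% lower. Of 15 measured genes of receptors and signalling in endothelial cells, 1 was higher and 0 lower, with a median of 0.30. The higher gene was Irf1, an interferon-induced transcription factor, at 133 CPM in WT and 204 CPM in KI (0.62, 0.54 to 0.70). Ifnar2 (67.6 and 91.6 CPM, 0.44) was below the limit, as was the interferon gamma receptor gene Ifngr1 (207 and 157 CPM, -0.40). Of 11 sensors and adaptors 1 was higher, the mitochondrial adaptor gene Mavs (10.8 and 16.3 CPM, 0.59), and 1 was lower, Ikbke, from 23 to 13 UMIs. Of 9 negative regulators 0 were higher and 1 lower, Trim24 (149.6 and 85.4 CPM, -0.81), with a median of -0.20.

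Of 39 other type I interferon-induced genes measured in endothelial cells, where 10.8% of all genes were higher and 6.62% lower, 8 were higher and 1 lower, Slfn9, from 31 to 20 UMIs, with a median of 0.22. The highest with at least 100 UMIs were Slfn2 (0.81), Apol9a (0.75) and Slfn8 (0.74). The most abundant genes of this list went the other way, within the 0.5 limit. Ifitm3 was at 1757 CPM in WT and 1468 CPM in KI (-0.26, -0.28 to -0.23). Ifitm2 was at 1199 and 992 CPM (-0.27, -0.30 to -0.24). Of 19 genes known chiefly for interferon gamma, 4 were higher and 3 lower, with a median of 0.31. Tgtp2 (1.24), Gbp6 (0.77) and Gbp5 (0.64) were furthest up, with Gbp4 (0.61). The 3 lower genes were the chemokine genes Cxcl10, from 48.4 to 23.7 CPM (-1.03, -1.21 to -0.85), and Cxcl9 (-0.78), and Ciita (-0.56). Cxcl10 and the members Isg15 and Ifit1, all interferon-induced, therefore differed in opposite directions in endothelial cells. In fibroblasts, where 17.7% of all genes were higher and 7.37% lower, the other type I genes numbered 5 higher and 0 lower of 34 (median 0.21), a share of higher genes not above that of all genes. Those with at least 100 UMIs were Mndal (0.71), Ifi207 (0.66), Herc6 (0.64) and Ddx60 (0.53). The gamma genes numbered 3 higher and 3 lower of 13, among them Iigp1, a GTPase gene, from 386 to 187 CPM (-1.04, -1.17 to -0.92).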

How the data were processed

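The deposited files hold raw UMI counts per gene and barcode, as the whole-number entries show, written by software version 3.0.2 per the file headers. Per the submitters' processing notes, the genome was mm10 and the tools were R 3.5.3, Cell Ranger 2.0 and Seurat 2.3.4. The annotation and the use of strand are not given in the sources used here. Barcodes with at least 200 genes and at most 10% mitochondrial UMIs were kept, 8417 in WT and 7161 in KI. Doublets were scored per library with Scrublet in scanpy 1.11.5; its automatic threshold marked 0, so the 877 WT and 665 KI barcodes of highest score (0.8% per 1000 barcodes) were marked instead, a choice made after this was seen. The cells of both libraries were clustered together (2000 variable genes per library, without the members and pathway lists, 30 components, 15 neighbours, Leiden resolution 1) and named from marker lists. A cluster was named where at least 3 of its class's markers were detected and its 10 leading genes held more of them than of another class's; these naming rules were set after clusters were seen, and clusters that failed them were left unnamed and out of every class. UMIs were summed per class and library. Ratios carry exact conditional binomial intervals, levels exact Poisson intervals and shares exact binomial intervals (95%, scipy 1.17.1), for counting error only, and intervals were checked on simulated counts. Calls used 0.5 added counts. There is 1 library per genotype, so nothing was tested. Alternatives varied the cell filter, doublets, clustering, scaling, thinning, count minimum and single top cells. Members named in full had at least 100 UMIs in a class: all such in endothelial cells and fibroblasts, and elsewhere those whose interval lay past 0.5. Some values given elsewhere fall outside this rule, such as Ifit3 in type 1 alveolar cells and Isg15 in neutrophils. The members, lists and markers were chosen with earlier results of these data known.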

Additional observations from a re-analysis of the deposited data

Results flagged for a closer look

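Some members had ratios past 0.5 in opposite directions in different cells, each with at least 100 UMIs and an interval on its own side of 0. None of these differences was tested, since each genotype has 1 library. Isg15 had a log2 ratio of KI over WT of 1.45 in type 1 alveolar cells and -1.27 in leukocytes, where the libraries differ in their share of neutrophils. Without the type 1 alveolar cell with the most member UMIs in each library the first ratio was 0.94. Trim30a had 0.57 in adventitial fibroblasts and -0.71 in leukocytes. Ifit3 had 1.31 in arterial endothelial cells and -0.59 in type 1 alveolar cells. Cmpk2 had 0.61 in general capillary cells and -1.09 in capillary aerocytes. Ifit2 had 0.70 in adventitial fibroblasts and -0.86 in capillary aerocytes, and Rsad2 had 1.32 in type 1 alveolar cells and -0.64 in capillary aerocytes. The type 1 alveolar Rsad2 ratio was 2.39 without the top cells, from 9 and 31 UMIs, and -0.077 with cells thinned to 2000 UMIs. For aerocytes, leaving out the cell with the most member UMIs in each library gave -0.77 for Cmpk2, -0.33 for Ifit2 and 0.97 for Rsad2, so the Rsad2 direction there was that of 1 WT cell.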

How the results depend on the processing

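No paired analysis was possible because each genotype has 1 library. The summed endothelial ratio of 0.33 became 0.28 with a stricter cell filter, 0.28 when centred on the median of all genes, 0.35 as a mean of per-cell CPM and 0.37 with cells thinned to 2000 UMIs, where the median became 0.38. The count of 7 higher endothelial members stayed within 1.5 times under every setting run. In fibroblasts the summed ratio was 0.13 when centred, and 5 members were higher with the stricter filter and 4 of those with at least 100 UMIs. In smooth muscle cells or pericytes the summed and median ratios were -0.060 and -0.092 with the stricter filter, and 0.043 and 0.076 after thinning; the median was 0.042 without the top cell of each library, a step added after seeing the data. In type 2 alveolar cells the summed ratio was 0.41 with doublets kept, 0.15 with the stricter filter, 0.99 as a mean of per-cell CPM, 0.18 centred, -0.020 thinned, and 0.15 both when clusters were weighted alike and without the shallow cluster (the last added after seeing the data). The median there was 0.0088, 1.19, 0.34, -0.074, 0.20 and 0.18 under the stricter filter, per-cell mean, centring, thinning, alike weighting and loss of that cluster, and 0.15 for members with at least 100 UMIs. In the thinning behind the per-cell shares, mean member UMIs per type 2 alveolar cell were 0.443 in WT and 0.499 in KI. That is higher in KI, unlike the thinned ratio of -0.020. In smooth muscle cells or pericytes those means were 1.55 and 1.71. The direction of the thinned type 2 alveolar ratio thus differed between these thinnings, and the reason was not tested. In type 1 alveolar cells the summed ratio was 0.48 with no cell filter and 0.17 as a per-cell mean. The median there was 0.45 with the stricter filter and 0.19 without the top cells. After thinning, Zbp1 in fibroblasts was at -0.041 and Rsad2 in type 1 alveolar cells at -0.077, both on the other side of 0. Over 14 settings Oasl2, Ifit1, Ifit3b, Isg15 and Slfn5 stayed over 0.5 in endothelial cells and Slfn5 in fibroblasts, while endothelial Oas2 ran from 0.49 to 0.63 and Ifi27l2a from 0.40 to 0.60. In fibroblasts Oasl2 fell below the limit with the stricter filter (0.25) and when centred (0.47), and Isg15 as a per-cell mean (0.39). The causes were not tested.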

Other observations

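A small number of cells carried member RNA far above their class. After thinning to 2000 UMIs, 15 of 5634 WT cells (0.266%, interval 0.149 to 0.439) and 28 of 5007 KI cells (0.559%, interval 0.372 to 0.807) held at least 20 member UMIs, a limit chosen after seeing the data. After thinning these cells held from 4 to 21 different members in WT and from 1 to 21 in KI, so not all had many members. The cell with the highest share was a WT type 1 alveolar cell, in which members made up 4.34% of 3270 UMIs and 22 members were seen. The next was the WT aerocyte with 454 member UMIs, or 4.21% of its UMIs. A KI type 1 alveolar cell followed at 2.82%, with 38 UMIs of Ifit1, 36 of Isg15 and 32 of Rsad2. A KI general capillary cell had 64 UMIs of Rsad2, 55 of Isg15 and 40 of Ifit1 but 0 of Ifit3, whereas a KI pericyte had 30 of Ifit3 and 0 of Rsad2. None of the cells with at least 20 member UMIs held a UMI of a listed interferon gene. Whether these cells are of 1 kind was not tested.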
